A study of Mus musculus with 36 samples.

Results

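The 10 genes described here belong to the erythroid programme: the transcription factors Klf1, Gata1 and Gfi1b, the receptors Epor and Tfrc, the carbonic anhydrases Car1 and Car2, the surface proteins Aqp1 and Ermap, and the β-globin chain Hbb-bt. They were chosen by symbol, which was matched to the gene identifiers of both count tables. All 10 were found among 55414 identifiers. Bulk total RNA was sequenced from stem and progenitor cells sorted from mice that carry Kmt2a-AFF1, a fusion gene of infant leukaemia. The sort gave HSC/MPP (negative for lineage markers and Flt3, positive for c-Kit and Sca-1, called HSC), LMPP (the same but positive for Flt3) and LK/CLP (c-Kit positive, Sca-1 negative, called LK). The 36 libraries form 9 groups of 4. In the leukaemia arm, 12 mice of the genotype miR-130b overexpressing Kmt2a-AFF1+ (the design text of the series writes miR-130a) with terminal leukaemia each gave a pair of libraries of a single sorted type, 1 from bone marrow (BM) and 1 from the central nervous system (CNS). In the control arm, 4 mice of the genotype miR-scramble overexpressing Kmt2a-AFF1+, without leukaemia, each gave 1 BM library of every type. All groups therefore carried the fusion, and no CNS library came from a control mouse. The sources used here give neither the ages of the mice nor the promoters behind the fusion and the microRNA. Disease, microRNA and deposited table change together between the arms and cannot be told apart.

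Red cells arise from progenitors that leave the stem cell pool, pass through a bipotent stage shared with megakaryocytes, and come to depend on erythropoietin. Gata1 and Klf1 are the DNA-binding factors that switch on most genes of the red cell, and Gfi1b is a repressor that works beside Gata1 in erythroid and megakaryocyte cells. Epor receives erythropoietin, Tfrc brings in transferrin-bound iron, Car1 and Car2 hydrate carbon dioxide, Aqp1 is a water channel, Ermap is a surface protein of erythroid cells, and Hbb-bt is one of the adult β-globin chains. In normal marrow the sorted LK compartment holds the erythroid, megakaryocyte and myeloid progenitors.

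The stretches of 250 bases before the start sites of 4 members are shown as examples and do not stand for all members. Klf1, Epor and Ermap were highest in control LK cells, and Hbb-bt was lowest there. The sequences come from RefSeq, build GRCm38.p6, written 5′ to 3′ on the strand of the gene, at chr8:84901732-84901981 (plus strand, Klf1), chr9:21963577-21963826 (minus strand, Epor), chr4:119189996-119190245 (minus strand, Ermap) and chr7:103813924-103814173 (minus strand, Hbb-bt). Capitals mark matches on either strand to the GATA motif (AGATAA and its variant AGATAG, as well as TGATAA and its variant TGATAG), the CACCC motif that Klf factors bind, and the E-box (CAGCTG and its variant CAGATG).
Klf1: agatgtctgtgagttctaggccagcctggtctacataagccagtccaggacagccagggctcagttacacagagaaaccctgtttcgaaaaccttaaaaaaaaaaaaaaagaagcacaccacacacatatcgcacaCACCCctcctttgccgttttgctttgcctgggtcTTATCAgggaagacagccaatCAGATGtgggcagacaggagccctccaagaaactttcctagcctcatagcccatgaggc
Epor: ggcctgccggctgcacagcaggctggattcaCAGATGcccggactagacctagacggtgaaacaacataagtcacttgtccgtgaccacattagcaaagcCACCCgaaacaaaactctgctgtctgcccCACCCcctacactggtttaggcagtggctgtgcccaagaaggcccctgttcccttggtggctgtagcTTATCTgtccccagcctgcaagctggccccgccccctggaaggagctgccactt
Ermap: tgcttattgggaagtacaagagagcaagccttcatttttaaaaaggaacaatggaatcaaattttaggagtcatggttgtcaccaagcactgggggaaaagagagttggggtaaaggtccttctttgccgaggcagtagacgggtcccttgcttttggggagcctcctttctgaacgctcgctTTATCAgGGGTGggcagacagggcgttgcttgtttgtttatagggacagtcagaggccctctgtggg
Hbb-bt: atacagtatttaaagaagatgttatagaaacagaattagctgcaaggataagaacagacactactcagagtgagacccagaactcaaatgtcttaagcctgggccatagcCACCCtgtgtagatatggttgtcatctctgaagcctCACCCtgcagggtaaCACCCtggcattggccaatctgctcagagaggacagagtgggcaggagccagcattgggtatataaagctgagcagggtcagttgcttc
Promoters were found in the RefSeq table for 8 of the 10 members, giving 9 promoters because Tfrc has a pair of start sites; Car1 and Car2 had no entry. A GATA motif stood in 4 of the 9 (Klf1, Epor, Gfi1b and Ermap), against 26.5% of all 32851 promoters. The Gata1, Aqp1 and Tfrc promoters held none, though in control marrow these genes too were highest in LK cells. An E-box stood in 2 (Klf1 and Epor), against 25.5%. CACCC stood in all 9, but also in 52% of all promoters. The Hbb-bt stretch held 3 CACCC matches and neither of the other motifs. A match describes these letters only; no binding was measured.

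Library totals ran from 1.91 to 30.4 M counts. Levels are given as CPM, which scales the counts to a common library total, without further scaling, and the mean ± SD is over 4 libraries of a group. Sensory receptor genes, taken as silent in these cells, carried counts in every library; a gene was called above background where its count exceeded 3 times their count per exon length plus 10. This background would account for 21.8 to 27.9% of the counts in control HSC libraries, 6.55 to 12.5% in control LK libraries and 0.449 to 26.7% in leukaemia libraries. Ly6a, which encodes Sca-1, averaged 1.45 to 2.14 CPM in the LK groups and 11.1 to 22.3 CPM in the others, and the order of Flt3 levels within each arm and site put LMPP highest, so these sort markers followed the labels. The scaling of the fit matters for every fold change below. Over genes above background, the median log2 fold change of the edgeR fit on all genes past the count minimum was 1.63 for control LK over HSC, 1.47 for control LK over LMPP, 1.19, 1.69 and 0.31 for leukaemia over control in HSC, LMPP and LK cells, and 0.44 to 0.72 for leukaemia LK or LMPP over HSC. Refitted on genes above background only, all of these medians lay within 0.04 of 0. Values of that second fit are given beside the first for the comparisons the text turns on.

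In control marrow, 9 of the 10 genes were highest in LK cells in every mouse, and Hbb-bt was lowest there. Klf1 stood at 50.4, 37, 38.7 and 47.8 CPM in the 4 control LK libraries, against 6.91, 4.76, 5.65 and 7.6 in HSC and 2.85, 5.36, 2.15 and 2.77 in LMPP. Gata1 stood at 33, 32.8, 34.7 and 44.2 CPM in LK, at 15.3, 20, 16 and 14.4 in HSC and at 14.1, 20.1, 6.65 and 9.41 in LMPP. For both factors the LK libraries lay apart from all others, while HSC and LMPP overlapped. Gfi1b followed the same order with a narrower range, 31.4 ± 3.73 CPM in LK, 14 ± 1.89 in HSC and 8.93 ± 3.31 in LMPP.

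Among the receptors, Epor stood at 18.2, 15, 14.8 and 18 CPM in control LK, at 7.04 to 9.83 in HSC and at 3.45 to 9.36 in LMPP. In HSC and LMPP none of the 8 Epor libraries was above background. Tfrc stood at 112, 81.7, 110 and 101 CPM in LK, at 12.1 to 18.2 in HSC and at 19.1 to 27.2 in LMPP. It was the only member besides Hbb-bt whose control LMPP libraries all lay above the HSC libraries.

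The enzymes and surface proteins were highest in LK cells as well. Car1 stood at 228, 220, 210 and 269 CPM in control LK, at 13.9, 12.3, 9.22 and 7.6 in HSC and at 4.61, 6.54, 2.15 and 5.38 in LMPP. Car2 stood at 288, 232, 261 and 331 CPM in LK, and unlike Car1 it was above background in all 12 control libraries, at 54 to 73.6 CPM in HSC and 30.3 to 76 in LMPP. Aqp1 stood at 97.6 ± 12.2 CPM in LK, 16.9 ± 0.9 in HSC and 7.05 ± 1.94 in LMPP, with no overlap between any of the 3 types. Ermap stood at 143, 108, 112 and 135 CPM in LK, at 19.3 to 22.8 in HSC and at 13.9 to 20.1 in LMPP. Per kb of exon, control LK cells held 186 CPM per kb of Car1, 115 of Car2, 37.2 of Aqp1, 28.4 of Klf1, 23.5 of Ermap, 17.2 of Gfi1b, 16.4 of Tfrc, 14.8 of Gata1, 8.3 of Epor and 3.98 of Hbb-bt. The carbonic anhydrases thus led the members per length, and the globin chain came last.

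Hbb-bt ran against the others. It stood at 2.09, 3.75, 2.22 and 3.12 CPM in control LK, at 6.68, 5.8, 6.51 and 7.32 in HSC and at 17.6, 34.8, 14.6 and 23.9 in LMPP. The 3 types did not overlap, and LMPP was highest. Hbb-bt and Hbb-bs are near-identical copies, and Hbb-bt took between 38.4 and 64.6% of their joint counts across the 36 libraries, so the split between the copies is uncertain.

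**Figure D1:**
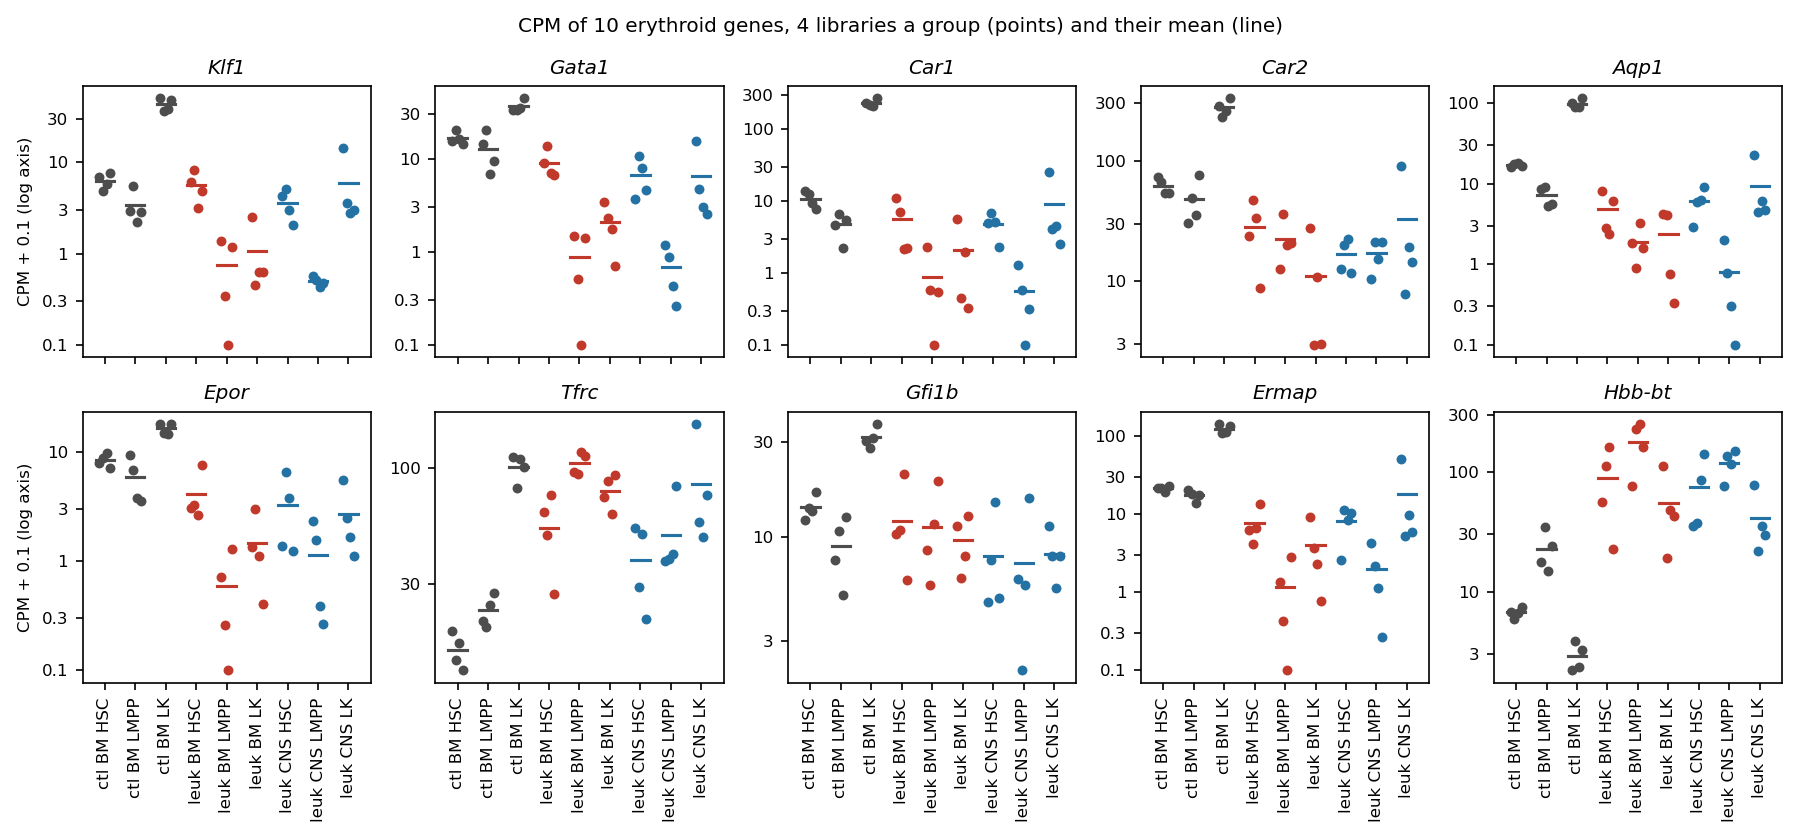
Level of each of the 10 genes in the 36 libraries, as CPM plus 0.1 on a log axis, by group; each point is a library and each line is the mean of 4. The control LK libraries stand above all other groups for Klf1, Car1 and Ermap (143 CPM at most), and for Hbb-bt the leukaemia groups stand above the control HSC and LK groups.

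The LK over HSC difference in control marrow passed for 9 of 10 members (edgeR quasi-likelihood test, Benjamini-Hochberg adjusted p under 0.05), all higher in LK; of all 41609 genes tested 44.7% were called, 25% higher and 19.7% lower. Bulk libraries cannot tell fewer cells of a type from less RNA per cell. Car1 rose by a log2 fold change of 5.80 ± 0.37 (SE), Klf1 by 4.23 ± 0.29, Tfrc by 4.13 ± 0.32, Ermap by 3.96 ± 0.30, Aqp1 by 3.92 ± 0.28 and Car2 by 3.55 ± 0.37. Gfi1b (2.55 ± 0.27), Gata1 (2.50 ± 0.25) and Epor (2.35 ± 0.24) rose least, and the largest edgeR adjusted p of the 9 was 1.14e-09. Fitted on genes above background, the values were smaller and 9 members were called higher, 4.11 for Car1, 2.55 for Klf1, 2.44 for Tfrc, 2.27 for Ermap, 2.25 for Aqp1, 1.87 for Car2, 0.89 for Gfi1b, 0.84 for Gata1 and 0.67 for Epor, against 33.7% of 11047 genes called higher. Klf1 and Epor were above background in no control HSC or LMPP library, and Tfrc and Ermap in 1 LMPP library each, so these 4 entered the refit through the group where they are high and their values there only describe. For Hbb-bt the choice decided the call, with 0.10 ± 0.26 (edgeR adjusted p = 0.775) on all genes and -1.53 (edgeR adjusted p = 2.43e-05) on genes above background.

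Against LMPP, all 10 members passed, 9 higher in LK and Hbb-bt lower, where 39.8% of genes were called, 24.5% higher and 15.3% lower. Car1 led again at 6.79, followed by Aqp1 at 4.98, Klf1 at 4.94, Ermap at 4.01, Car2 at 3.62 and Tfrc at 3.24. Gfi1b (2.92), Epor (2.74) and Gata1 (2.73) rose least, and Hbb-bt fell by 1.92 ± 0.24 (edgeR adjusted p = 6.07e-08). On genes above background the range was 1.16 for Epor to 5.29 for Car1, and Hbb-bt stood at -3.38. Between LMPP and HSC, Hbb-bt was the one member called, higher in LMPP by 2.02 ± 0.24 (edgeR adjusted p = 1.05e-05), with 0.183% of genes called in either direction, 0.111% higher and 0.0721% lower. Klf1 (-0.71), Car1 (-1.0), Aqp1 (-1.06) and Tfrc (0.88) had an unadjusted p under 0.05. On genes above background, where 2.27% were called, Tfrc was called higher in LMPP too (0.68, edgeR adjusted p = 0.0382), and Car1 (-1.18, adjusted p = 0.0105) and Aqp1 (-1.21, adjusted p = 0.000705) were lower. Tfrc was above background in 0 control HSC libraries and 1 LMPP library. It entered that fit through LK, where it is high, so its value only describes. Car1 was above background in 3 HSC libraries and 1 LMPP library, and Aqp1 in 3 and 0. Without the first control LK library, Aqp1 was called lower on all genes too (-1.06, edgeR adjusted p = 0.0425).

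Other genes of the programme moved with the members in control LK cells, on lists chosen with earlier results of these data known. Of 16 erythroid progenitor markers, 15 were higher in LK than in HSC and none lower, with a median log2 fold change of 2.65 against -0.31 over all genes. The examples with the smallest p were Blvrb, a biliverdin reductase (3.31), Ces2g (3.31), Rhag, an ammonium channel of the red cell (2.66), and Trib2 (2.64). Restricted to genes above background, 12 of 15 were higher and none lower, with a median of 1.00 against -0.03. Of 9 haem synthesis genes, 8 were higher, among them Alas1 (4.33), Cpox (3.19) and Urod (2.54). Alas2, the erythroid form of the first enzyme of haem synthesis, was not called (-0.45 ± 0.25, edgeR adjusted p = 0.132). In the refit 5 of 8 haem genes were higher and 2 lower, where 33.7% of genes were called higher and 36.7% lower.

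The remaining lists depended more on the scaling. Of all genes tested 25% were called higher and 19.7% lower, and 33.7% and 36.7% on genes above background. The counts below are to be read against those shares. All 14 partners of Gata1 and Klf1 were higher in LK than in HSC, among them Spi1 (2.56), Ldb1 (2.50), Tal1 (2.13) and Ikzf1 (3.03), but on genes above background 6 were higher and 1 lower. All 12 iron handling genes were higher, among them the ferritin chains Ftl1 (2.86) and Fth1 (3.29), and 6 higher with 1 lower on genes above background. For the membrane and skeleton list these counts were 10 higher and 1 lower of 14, against 3 higher and 2 lower of 11. For erythropoietin signalling they were 6 higher and 3 lower of 12, against 5 higher and 1 lower of 7. Megakaryocyte genes, which share Gata1 and Gfi1b with the erythroid line, were 2 higher and 2 lower of 11, against 0 higher and 5 lower of 6.

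In leukaemia marrow, LK cells held far less of 7 members than control LK cells did, and more Hbb-bt. Klf1 stood at 2.41, 0.356, 0.537 and 0.531 CPM in the 4 leukaemia BM LK libraries, below every control LK library, and none of the 4 was above background. Gata1 stood at 3.34, 2.22, 1.67 and 0.607 CPM there, Epor at 1.27, 2.93, 1.01 and 0.304, and again none was above background. Car1 stood at 5.48, 0.356, 1.85 and 0.228 CPM, Car2 at 27.7, 2.85, 10.7 and 2.88. In each of these genes the leukaemia and control LK libraries did not overlap. Aqp1 reached at most 4.14 CPM and Ermap at most 9.22 CPM in leukaemia BM LK, where the lowest control LK libraries held 88 and 108 CPM. Tfrc stood at 74.4, 87.4, 62.3 and 93.3 CPM, which overlapped its control LK libraries. Gfi1b stood at 11.3, 6.14, 7.94 and 12.7 CPM, below all 4 control LK libraries.

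The test called 8 of 10 members between leukaemia and control LK cells, 7 lower and 1 higher; over all 43483 genes 3.52% were called, 1.3% lower and 2.22% higher. The log2 fold change was -6.48 ± 0.74 for Car1, -5.23 ± 0.49 for Aqp1, -5.13 ± 0.53 for Klf1, -4.72 ± 0.49 for Ermap, -4.27 ± 0.61 for Car2, -3.83 ± 0.46 for Gata1 and -3.29 ± 0.45 for Epor. The largest edgeR adjusted p of these was 8.39e-06, for Car2. Hbb-bt rose by 4.76 ± 0.57 (edgeR adjusted p = 3.37e-07), from 2.8 ± 0.788 CPM in control LK to 111, 18.9, 47.6 and 42.9 CPM in the 4 leukaemia BM LK libraries. Gfi1b stood at -1.22 ± 0.42 (edgeR adjusted p = 0.102), and at -1.60 (edgeR adjusted p = 0.00156) on genes above background, where 7.18% of genes were called lower. Without the fourth leukaemia BM HSC library, which the fit shares for its spread, Gfi1b passed at -1.22 (edgeR adjusted p = 0.0324). Tfrc gave 0.11 (edgeR adjusted p = 0.895), and -0.24 (adjusted p = 0.506) on genes above background.

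Myeloid genes differed between the same libraries. The summed level of 10 neutrophil genes was 26.8 to 44.7 CPM in control LK and 419 to 6581 CPM in leukaemia BM LK, with 6 of 10 genes called higher and none at 0 throughout a group. The summed level of 8 LK markers was 5504 to 7527 CPM in control LK and 2191 to 2914 CPM in leukaemia BM LK, and none of the 8 was called in either direction. Megakaryocyte genes summed to 86.6 to 116 CPM in control LK and 14.4 to 54.9 CPM in leukaemia BM LK, with 3 of 11 called lower, among them Pf4 (-3.66) and Vwf (-1.44). The part of the cell mixture in the fall of the erythroid genes was not tested.

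The other genes of the programme divided by role. Of 16 erythroid progenitor markers, 12 were lower in leukaemia LK than in control LK and none higher, with a median of -2.92 against -0.25 over all genes. The examples with the smallest p were the sphingosine kinase Sphk1 (-4.01), Samd14 (-3.83), the sodium pump subunit Atp1b2 (-4.07) and Trib2 (-4.0). Of 14 membrane and skeleton genes, 9 were lower and none higher, among them ankyrin Ank1 (-3.26), β-spectrin Sptb (-2.70), and the Rh proteins Rhd (-2.78) and Rhag (-2.97). Iron handling showed 3 of 12 lower, namely the second transferrin receptor Tfr2 (-2.31), the iron transporter Slc11a2 (-1.74) and the ferrireductase Steap3 (-1.64), and none higher. Haem synthesis showed 2 of 9 lower, among them Cpox (-1.88), with none higher. Cpox and Rhag sit on 2 lists each and count under both.

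Partners of the erythroid factors went both ways. Tal1, which forms a complex with Gata1, was lower by -3.70, at 1.52 to 5.6 CPM in leukaemia BM LK against 48.9 to 56.7 CPM in control LK. Zfpm1, the Gata1 cofactor known as Fog1, was lower too (-2.33), while Spi1 (1.37), which opposes Gata1 in myeloid cells, and E2f2 (1.90) were higher. From erythropoietin signalling, the kinase Lyn (2.20), the adaptor Sh2b3 (1.56) and the phosphatase Ptpn6 (1.55) were higher and none lower of 12; all 3 also act outside the erythroid line. In the refit on genes above background, 15 of 15 progenitor markers, 11 of 12 membrane genes and 5 of 8 haem genes were lower and none higher. There iron handling showed 5 lower and 1 higher of 12. The partners showed 3 lower and 3 higher of 14, and erythropoietin signalling 4 higher and none lower of 9. Of all genes in that refit 10% were called higher and 7.18% lower.

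HSC and LMPP cells of the leukaemia arm gave a different picture from LK cells. In leukaemia BM HSC, Klf1 stood at 5.95, 8.26, 3.05 and 4.79 CPM, which overlapped the control HSC libraries at 4.76 to 7.6. Gata1 stood at 8.77, 13.4, 6.9 and 6.56 CPM, all below the control HSC libraries at 14.4 to 20. Tfrc stood at 63.4, 49.8, 75.4 and 26.8 CPM against 12.1 to 18.2 in control HSC, and Hbb-bt at 56, 112, 162 and 22.4 CPM against 5.8 to 7.32. Both of these were higher in all 4 leukaemia libraries. They were the 2 of 10 members called between the arms in HSC, Tfrc at 3.14 ± 0.43 (edgeR adjusted p = 1.51e-06) and Hbb-bt at 5.07 ± 0.58 (edgeR adjusted p = 7.96e-08), where 21.4% of genes were called, 20.3% higher and 1.06% lower. On genes above background, where 27.5% were called higher and 20.7% lower, Tfrc (1.80) and Hbb-bt (3.71) stayed called and Gata1 (-0.90, edgeR adjusted p = 0.0383), Aqp1 (-1.83, adjusted p = 0.00184) and Ermap (-1.54, adjusted p = 0.00696) were called lower. Ermap was above background in none of the 8 HSC libraries of both arms, and Aqp1 in 3 of 4 control and 1 of 4 leukaemia libraries. Gata1 was above it in 2 of 4 control and 3 of 4 leukaemia libraries. As a multiple of background, its median was 3.79 in control HSC and 5.94 in leukaemia BM HSC. The values of these 3 genes thus lie close to the background, and its part in their falls was not tested. Klf1 changed sign between the fits (1.08 and -0.17), as did Gfi1b (1.04 and -0.27), Car1 (0.41 and -0.95) and Car2 (0.21 and -1.15), and none of these 4 was called in either. Without the fourth leukaemia BM HSC library, the fit on all genes called both higher, Klf1 at 1.34 (edgeR adjusted p = 0.0234) and Gfi1b at 1.37 (edgeR adjusted p = 0.00462).

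In leukaemia BM LMPP, Klf1 stood at 1.28, 0.242, 0 and 1.09 CPM, Gata1 at 1.38, 0.404, 0 and 1.31 and Ermap at 1.25, 0.323, 0 and 2.72. The third library is the shallowest of the study, with 1.91 M counts, and read no count of Klf1, Gata1, Car1, Epor or Ermap, which allows levels of up to 1.57 CPM (3 counts, counting error only). Tfrc stood at 96.1, 94, 119 and 114 CPM, Gfi1b at 8.54, 5.65, 11.5 and 18.9, and Hbb-bt at 76.7, 228, 252 and 160. These 3 genes were thus well read in the same libraries. The test called 6 of 10 members, where 62.8% of genes were called, 26% higher and 36.8% lower. Gata1 fell (-1.85 ± 0.46), as did Ermap (-2.07 ± 0.47) and Epor (-1.41 ± 0.47, edgeR adjusted p = 0.0105), and on genes above background the 3 stood at -3.60, -3.67 and -3.19. Epor was above background in none of the 8 LMPP libraries of both arms, Ermap in 1 control library alone, and Gata1 in 2 of 4 control and 1 of 4 leukaemia libraries. The background would account for 14.2 to 27.1% of the counts in control LMPP and 0.774 to 6.4% in leukaemia BM LMPP, and its part in these falls was not tested. Tfrc rose by 3.70 ± 0.44 and Hbb-bt by 4.48 ± 0.55, or 2.13 and 2.95 on genes above background. Gfi1b was called at 1.80 ± 0.43 (edgeR adjusted p = 0.000644) and not on genes above background (0.27, edgeR adjusted p = 0.503). There Klf1 (-1.90), Car1 (-2.05) and Aqp1 (-2.23) were called lower too, where 64.5% of genes were called, 32.7% higher and 31.8% lower. Klf1 and Aqp1 were above background in 0 of 4 control LMPP libraries and Car1 in 1, and each of the 3 in 1 of 4 leukaemia libraries. Car2 changed sign between the fits (0.38 and -1.14) and was called in neither. Without the second leukaemia BM LMPP library, Epor stood at -1.12 (edgeR adjusted p = 0.0521).

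The leukaemia effect depended on the sorted type for 9 of 10 members in the edgeR test of that dependence, which has 2 degrees of freedom, against 12.6% of genes. The effect in LK minus that in HSC was -6.89 for Car1, -6.20 for Klf1, -4.58 for Aqp1, -4.49 for Car2, -4.23 for Ermap, -4.22 for Gata1, -3.23 for Epor, -3.03 for Tfrc and -2.25 for Gfi1b, with edgeR adjusted p between 2.56e-06 for Klf1 and 0.00221 for Gfi1b. The median of that difference over genes above background was -0.83. In the refit on those genes, where 30.8% were called, the same difference ran from -5.78 for Car1 to -1.32 for Gfi1b. Among BM libraries, Epor was above background in the 4 control LK libraries alone. Klf1 and Ermap also entered that refit only through control LK, where they are high. The refit values of these genes thus only describe. Hbb-bt was the member not called for this dependence, at -0.31 (edgeR adjusted p = 0.788), or 0.71 (adjusted p = 0.209) in the refit. It was higher in leukaemia in all 3 types.

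**Figure D2:**
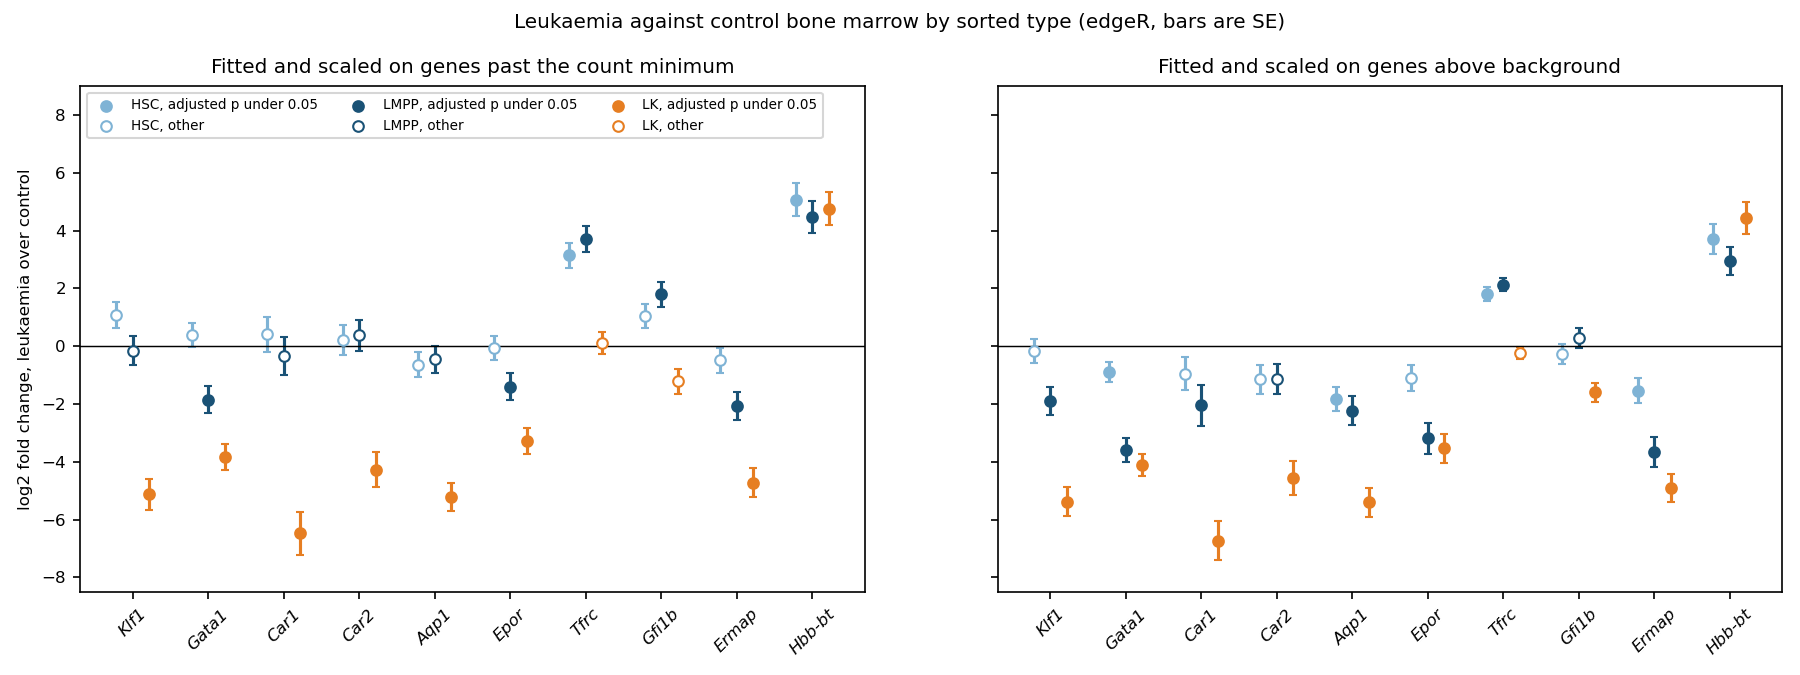
Log2 fold change of leukaemia BM over control BM for each member in HSC, LMPP and LK cells, with bars of 1 standard error, fitted on genes past the count minimum and on genes above background in the other panel. In LK, Car1 reached -6.48 while Hbb-bt stood at 4.76, and in HSC and LMPP the points shift down between the panels, so that Klf1 in HSC moves from 1.08 to -0.17.

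The β-globin copy Hbb-bs followed Hbb-bt. It averaged 5.39, 17.2 and 2.94 CPM in control HSC, LMPP and LK and 65.1, 129 and 43 CPM in the matching leukaemia BM groups, with log2 fold changes of 4.90, 4.40 and 4.29, all called. The α-globin Hba-a1 did not follow in LK cells, where leukaemia over control gave -0.59 (edgeR adjusted p = 0.549). In HSC it was called on all genes (1.52, edgeR adjusted p = 0.0339) and not on genes above background (0.56, edgeR adjusted p = 0.515). Its leukaemia BM means were 16.5, 8.43 and 4.92 CPM in HSC, LMPP and LK, against 10.8, 8.68 and 9.6 CPM in control. Fitted on genes above background, Hbb-bs stood at 3.55, 2.88 and 3.97 for leukaemia over control in HSC, LMPP and LK.

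Within the leukaemia arm, edgeR called no member between sorted types in any of 6 comparisons. Of all 40332 genes 0.0595% were called for CNS LMPP over HSC (0.057% higher, 0.00248% lower), 0.00496% for CNS LK over LMPP (all lower, 0.00496%) and 0% for the other 4. In marrow, unadjusted p under 0.05 was reached by 2 members for LK over HSC, 1 for LK over LMPP and 6 for LMPP over HSC. The shares of all genes that reached it were 5.84%, 2.42% and 16.8%. Klf1 stood at -2.05 ± 0.71 for LK over HSC (edgeR adjusted p = 0.689) and Gata1 at -1.75 ± 0.65, the opposite sign from control marrow. Neither gene was above background in a leukaemia BM LK library. For LMPP over HSC, Gata1 (-2.61 ± 0.68, edgeR adjusted p = 0.295), Klf1 (-2.11), Epor (-1.86) and Ermap (-1.69, or -2.38 on genes above background) were below 0 and Tfrc (1.53) and Hbb-bt (1.51) above. Epor and Ermap were above background in no library of these 2 groups. Klf1 was above it in 2 HSC libraries and 1 LMPP library, Gata1 in 3 and 1. The background would account for 9.02 to 26.7% of the counts in leukaemia BM HSC and 0.774 to 6.4% in BM LMPP. Its part in the falls was not tested. DESeq2 called 4 members for LMPP over HSC and none in the other marrow comparisons of the arm. The share of all genes that DESeq2 called is not given here, so this count does not set the members apart. For LK over LMPP the one value under an unadjusted 0.05 was Hbb-bt (-1.77 ± 0.64, edgeR adjusted p = 1).

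In the CNS, as in marrow, HSC held the highest median of Klf1 and of Gata1. The Klf1 median was 3.53 CPM in CNS HSC and 3.2 in CNS LK, against 5.37 and 0.534 in marrow. Klf1 stood at 14.2, 3.51, 2.7 and 2.9 CPM in CNS LK, at 4.15, 5.04, 2.91 and 1.97 in CNS HSC and at 0.474, 0.42, 0.331 and 0.383 in CNS LMPP. The LK libraries of Klf1 overlapped HSC and all lay above LMPP. Gata1 stood at 15.5, 4.66, 2.92 and 2.44 CPM in CNS LK and at 3.57, 10.5, 7.9 and 4.47 in CNS HSC. In CNS LMPP it stood at 1.07, 0.788, 0.331 and 0.164. For LK over LMPP, 6 members had an unadjusted p under 0.05, against 2.69% of genes. They were Klf1 at 3.78 ± 0.77 (edgeR adjusted p = 0.15), Gata1 at 3.42 ± 0.71, Aqp1 at 3.91 ± 0.83, Car1 at 4.46 ± 1.04, Ermap at 3.32 ± 0.76 and Hbb-bt at -1.63 ± 0.64. On genes above background Klf1 (3.70, edgeR adjusted p = 0.0215) and Gata1 (3.33, edgeR adjusted p = 0.0351) were called, where 0.373% of genes were called, and DESeq2 called 3 members. For LMPP over HSC, the same refit called Klf1 (-3.04), Gata1 (-3.45), Car1 (-3.42) and Aqp1 (-3.21) lower against 5.69% of genes, and DESeq2 called 4 members lower. None of these genes was above background in a CNS LMPP library. In CNS HSC, Klf1 was above it in 1 library and Gata1, Car1 and Aqp1 in 2 each. The background would account for 3.45 to 24.4% of the counts in CNS HSC and 0.449 to 8.57% in CNS LMPP. Its part in these values was not tested. For LK over HSC the refit called Tfrc higher (1.17, edgeR adjusted p = 0.0278) against 5.27%, and DESeq2 called 1 member. Beside the DESeq2 counts of these CNS comparisons no share of all genes is given, so they do not set the members apart. In the fit on all genes 5 members reached an unadjusted p under 0.05 for LK over HSC, against 13.5% of genes. They were Ermap (2.20), Car2 (1.86), Tfrc (1.79), Aqp1 (1.58) and Klf1 (1.51). Refitted on genes above background, the 4 besides Tfrc no longer did, with Ermap at 1.00, Car2 at 0.92, Klf1 at 0.66 and Aqp1 at 0.51, and Gata1 moved from 0.91 to -0.12. For LMPP over HSC, 5 members reached an unadjusted p under 0.05 in the fit on all genes, against 19.7% of genes. They were Car1 (-2.74), Gata1 (-2.51), Aqp1 (-2.33), Klf1 (-2.27) and Hbb-bt (1.64, or 0.65 in the refit). Without the first CNS HSC library, that fit called 1 member for LK over HSC, Tfrc at 2.46 (edgeR adjusted p = 0.015), and 3 for LMPP over HSC, among them Gata1 at -2.49 and Aqp1 at -2.39.

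**Figure D3:**
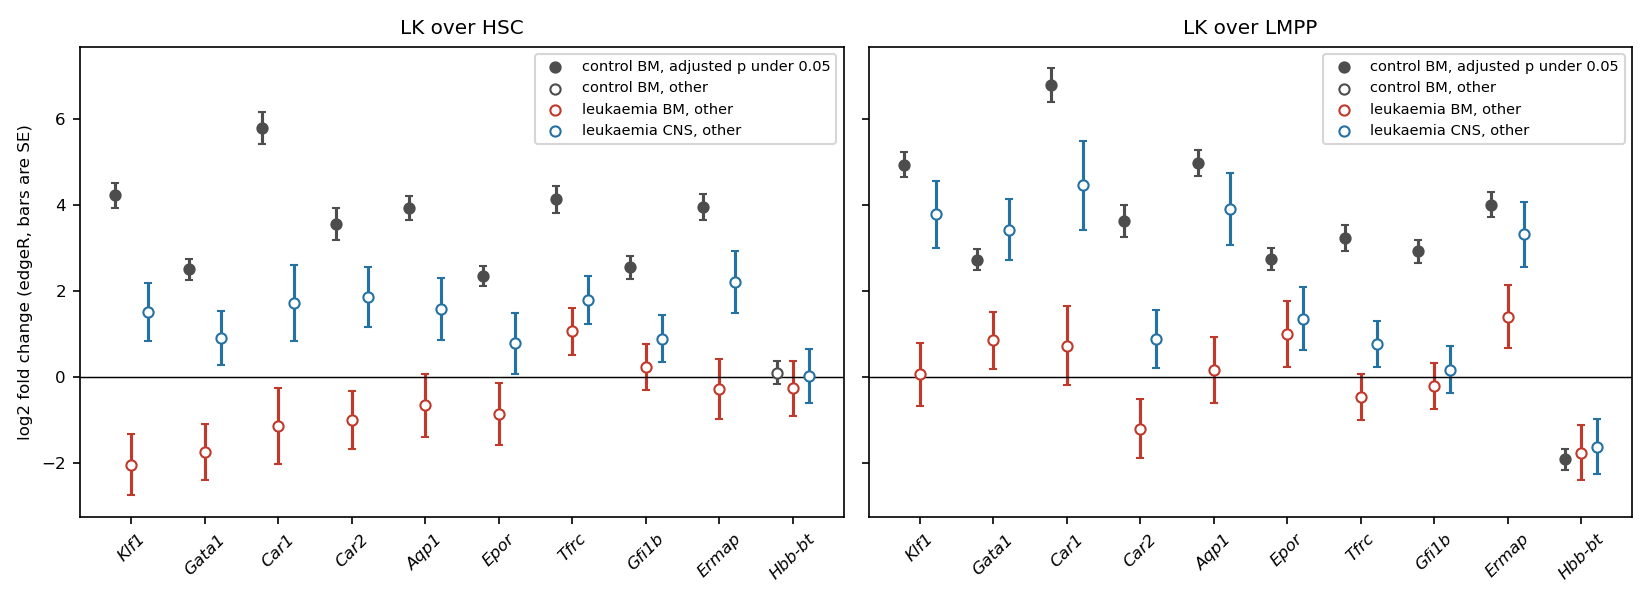
Log2 fold change of LK over HSC and of LK over LMPP for each member in control BM, leukaemia BM and leukaemia CNS, with bars of 1 standard error from the edgeR fit on all genes. Klf1 over HSC stood at 4.23 in control BM, at -2.05 in leukaemia BM and at 1.51 in leukaemia CNS, where it was 0.66 on genes above background.

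Between CNS and marrow of the same arm, no member passed, and no gene of 40332 did, in any sorted type (edgeR, 0% called). In LK cells 6 of the 10 members had an unadjusted p under 0.05, against 1.07% of genes, all 6 higher in the CNS. Klf1 stood at 2.91 ± 0.73 (edgeR adjusted p = 1), Ermap at 2.59 ± 0.73, Aqp1 at 2.50 ± 0.76, Car1 at 2.48 ± 0.92, Gata1 at 2.00 ± 0.65 and Car2 at 1.91 ± 0.70. Each of these 6 genes was higher in the CNS library than in the marrow library of the same mouse in 4 of 4 LK mice. DESeq2 called no member and no gene in LK cells. Other genes of the programme had the same sign: 16 of 16 erythroid progenitor markers and 14 of 14 membrane genes were above 0, with 7 and 4 at an unadjusted p under 0.05, a median of 0.88 and 0.99 against 0.03 over all genes, and none called. The neutrophil genes were below 0 in 8 of 10 and summed to 109 to 895 CPM in CNS LK against 419 to 6581 CPM in BM LK; their part in the erythroid values was not tested.

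A single mouse carried much of the size. The first CNS LK library held 14.2 CPM of Klf1, 15.5 of Gata1, 25 of Car1, 90.6 of Car2, 22.3 of Aqp1 and 51.3 of Ermap, while the other 3 CNS LK libraries reached at most 3.51, 4.66, 4.36, 19.2, 5.91 and 9.68 CPM. Its marrow partner was also the highest of the 4 BM LK libraries for these genes, at 2.41 CPM of Klf1 and 27.7 CPM of Car2. Without that CNS library the LK differences were 1.96 for Klf1, 1.59 for Aqp1, 1.21 for Ermap, 1.12 for Car1, 1.01 for Gata1 and 0.67 for Car2. All 6 stayed above 0.

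With the mouse as a block, which compares the CNS and marrow libraries within a mouse, Klf1 in LK stood at 2.85 ± 0.68 and no member passed. With the block on genes above background, Klf1 stood at 2.72 ± 0.46 (edgeR adjusted p = 0.183), Car2 at 1.66 ± 0.29 (edgeR adjusted p = 0.183) and Car1 at 2.50 (edgeR adjusted p = 0.393). Aqp1 (2.47), Ermap (2.14) and Gata1 (1.62) had larger p in that fit. Ermap was above background in 3 CNS LK libraries and 1 BM LK library, and in no other leukaemia library. It thus entered that fit mainly through the group where it is high, and its value there only describes. In LMPP cells that fit called Tfrc lower in the CNS, at -0.99 ± 0.22 (edgeR adjusted p = 0.0321) where 0.361% of genes were called lower; the fit without a block gave -0.88 (edgeR adjusted p = 1). That call was lost when the first, the second or the third LMPP mouse was left out. Tfrc stood at 37.9, 38.9, 40.7 and 83 CPM in CNS LMPP against 96.1, 94, 119 and 114 CPM in the marrow of the same mice. It was lower in the CNS in 11 of 12 mice across the types, and higher in 1 LK mouse.

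Over all 3 types together the members split by direction. Gfi1b was higher in the CNS in 1 of 12 mice and Hbb-bt in 2 of 12. Ermap was higher in 9 of 12, with 1.12 ± 0.42 over the 3 types (edgeR adjusted p = 1), and Epor and Aqp1 in 8 of 12 each. With the mouse block on genes above background, 6 members had an unadjusted p under 0.05 over the 3 types, against 13.2% of genes: Ermap (1.08), Car1 (0.73), Klf1 (0.61) and Car2 (0.35) above 0, Tfrc (-0.40) and Gfi1b (-0.38) below, and none was called. Ermap entered that fit mainly through the CNS LK libraries, where it is high, so its value only describes. DESeq2 called 62 genes higher and 12 lower over the 3 types, none of them a member. In the edgeR fit on all genes without a block, no member had an unadjusted p under 0.05 in HSC or LMPP cells, against 304 and 684 genes. In LMPP cells Aqp1 (-1.72) and Tfrc (-0.95) did with the block on all genes, and Tfrc and Gfi1b (-0.63) with the block on genes above background. DESeq2 called no gene in HSC and 8 higher and 6 lower in LMPP, none of them a member. Whether the site difference depended on the type was also tested: 0 members were called by edgeR or DESeq2, and 6 had an unadjusted edgeR p under 0.05, with Klf1 at 3.56 for LK minus HSC.

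**Figure D4:**
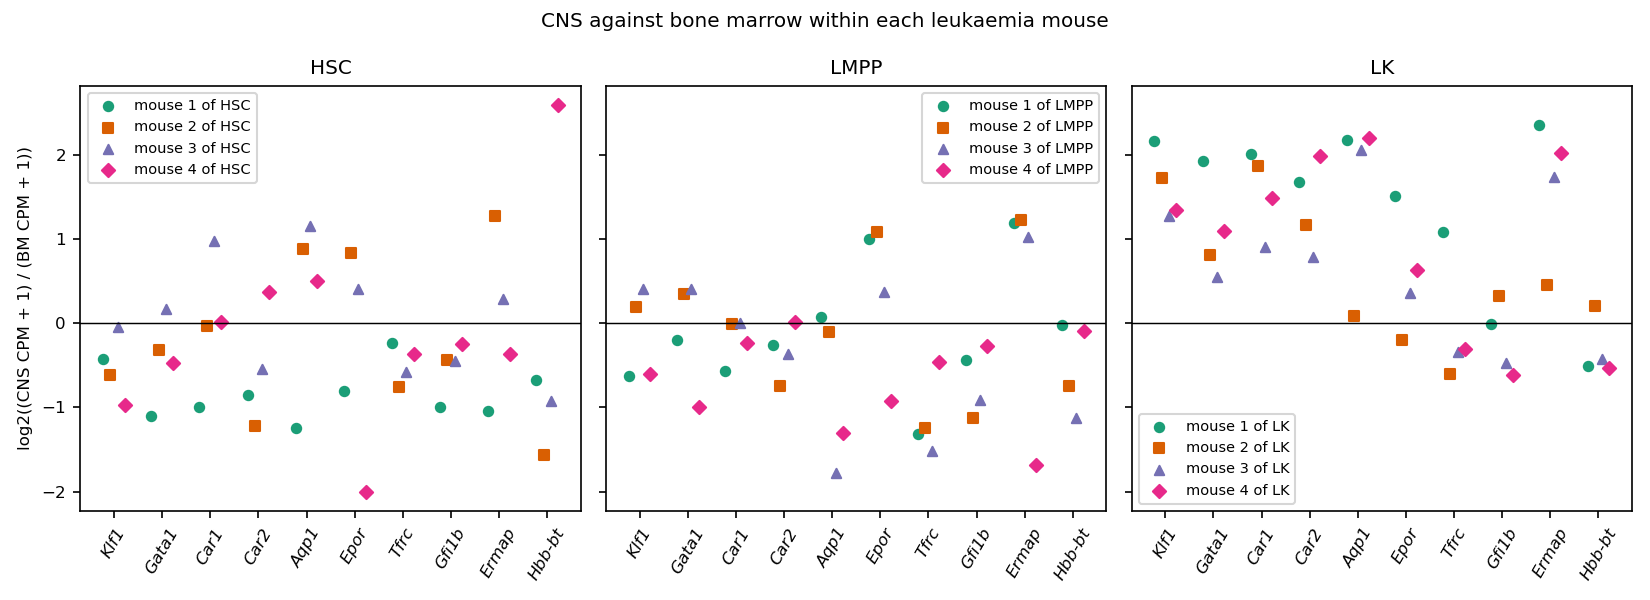
Log2 ratio of CNS to BM level, each as CPM plus 1, for each member and mouse, by sorted type; points above 0 are higher in the CNS. Klf1, Gata1, Car1, Car2, Aqp1 and Ermap lie above 0 in 4 of 4 LK mice, and Tfrc lies below 0 in 11 of 12 mice.

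The members kept close company in control marrow and less in leukaemia. Over the 12 control libraries, the Pearson correlation of log2(CPM + 1) of a member with the mean of the others was 0.87 to 0.99 for 9 of them and -0.83 for Hbb-bt. Over the 24 leukaemia libraries it was 0.83 for Klf1, 0.82 for Car1, 0.81 for Gata1, 0.72 for Ermap and 0.70 for Aqp1, 0.57 for Car2 and for Epor, 0.26 for Gfi1b, -0.02 for Tfrc and -0.17 for Hbb-bt. The libraries share mice, depth and background, and the correlations carry the differences between the sorted types, so these values only describe. Outside the members, the genes most like their mean profile in leukaemia were Sept8 (0.90), the hexokinase Hk1 (0.81), Zfpm1 (0.80), the NAD kinase Nadk2 (0.80) and Gclm, a subunit of glutathione synthesis (0.80), among 11589 genes. In control marrow they were Mt1, Atp6v0c, Asap1, Acss1 and Tpcn1, each at 0.99 among 19564 genes.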

How the data were processed

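The authors deposited 2 tables of gene counts, 1 for the 24 leukaemia and 1 for the 12 control libraries. Despite table names that call the values normalised, they are whole numbers with totals from 1.91 to 30.4 M, so they were taken as unscaled counts. RNA was extracted with the Quick-RNA Microprep kit and libraries made with the SMARTer Stranded Total RNA-Seq Pico kit, per the labels' protocols. DESeq2 and build GRCm39 are named in the submitters' processing notes; for the aligner, the counting tool and its use of strand nothing was found (not given in the sources used here), so overlapping genes and near-identical copies are uncertain. Symbols (52081 of 55414 identifiers) and exon lengths came from an annotation of build GRCm38, matched by identifier.

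Each group held 4 libraries of 4 mice. Genes that reached 10 counts in 4 or more libraries of a fit were scaled by TMM and tested with edgeR 4.0.16 (glmQLFit, glmQLFTest) in R 4.3.3, with p-values adjusted by Benjamini-Hochberg at 0.05. One fit held the 24 leukaemia libraries (40332 genes), another the 12 control libraries (41609) and the last the 24 BM libraries of both arms (43483), each without a mouse block. SE is the fold change over the root of the F statistic. Alternatives were DESeq2 1.42.0, DESeq2 size factors, no count minimum, genes above background (15800, 11047 and 15179 in the 3 fits, from 1792 sensory receptor genes), the mouse as a block, leaving out each library, and only the 8 libraries of a type. The fits were run on simulated counts with known fold changes in well-counted genes. These counts held no background that differed between groups, so they do not test the fits for such a background or for low members. Mouse identifiers in the labels pair the CNS and BM libraries of 12 mice, whose deviations from their group means correlated with a median r of 0.21 (-0.37 to 0.75), and tie the types of the 4 control mice (12 pairs, median 0.01, -0.49 to 0.12). All 10 members are described; a fold change is given where a member passed or had an unadjusted p under 0.05. From the other lists, counts and up to 4 genes with the smallest p are given, a few list genes are not reported here by name, and Alas2, Hbb-bs and Hba-a1 were named after their values were seen. The members and lists were chosen with earlier results of these data known.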

Additional observations from a re-analysis of the deposited data

Results flagged for a closer look

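The spread within a group of 4 libraries was examined for 10 members in 9 groups. In 10 of these 90 cases the highest library lay so far from the other 3, relative to the whole range, that it passed Dixon's limit; chance gives about 1 in 20. The first CNS LK library gave 6 of the 10, with 14.2 CPM of Klf1, 15.5 CPM of Gata1, 25 CPM of Car1, 90.6 CPM of Car2, 22.3 CPM of Aqp1 and 51.3 CPM of Ermap. The marrow LK library of the same mouse gave another, with 2.41 CPM of Klf1. The remaining ones were 44.2 CPM of Gata1 in the fourth control LK library, 7.53 CPM of Epor in the fourth leukaemia BM HSC library and 83 CPM of Tfrc in the fourth CNS LMPP library.

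The difference between leukaemia and control marrow depended on the sorted type for 9 members, by edgeR's test of the interaction. The edgeR adjusted p was 2.56e-06 for Klf1, 9.4e-06 for Aqp1, 2.14e-05 for Car1, 0.000154 for Gata1 and 0.000239 for Ermap. For Tfrc it was 0.000264, for Car2 0.000312, for Epor 0.00194 and for Gfi1b 0.00221 (edgeR, adjusted). For Tfrc the dependence took the form of a higher level in leukaemia HSC and LMPP but not in leukaemia LK, where the control level was already high.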

How the results depend on the processing

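The tally covers the 100 pairs of member and comparison with an unadjusted p under 0.05 on all genes or with the mouse block on genes above background; the other pairs are not in it. Of 2597 recomputed fold changes over these pairs, 2537 kept their direction and their side of the threshold. Of the rest, 4 lost the call, 45 gained one and 11 changed sign. Most of the 2597 came from leaving out 1 library, where 2075 kept both. On genes above background 84 kept both, 11 gained a call, 1 lost it and 3 changed sign. By the DESeq2 test these were 81, 14, 1 and 1. A further 4 had no value. Epor was not above background for leukaemia BM LMPP over HSC, and the others lacked an adjusted p in the DESeq2 test. Members called were 9, 10 and 9 in every alternative that left out a library for control LK over HSC, control LK over LMPP and the dependence of the leukaemia effect on the type. For leukaemia over control the range without each library was 8 to 9 in LK, 5 to 7 in LMPP and 2 to 4 in HSC. DESeq2 size factors and the DESeq2 test called 9, 8 and 4 in these types. On genes above background 9, 8 and 5 were called, against 17.2%, 64.5% and 48.2% of genes. Klf1, Epor and Ermap entered that last fit only through control LK, so their part in these counts only describes. For control LMPP over HSC the counts were 2 by DESeq2, 4 on genes above background, 4 with the mouse block on those genes and 1 to 2 without a library. In the leukaemia arm DESeq2 called 4 members for BM LMPP over HSC. For CNS LK over HSC the counts were 1 by DESeq2, 1 on genes above background and 0 to 1 without a library. For CNS LK over LMPP they were 3 by DESeq2, 5 with no count minimum and 2 on genes above background. For CNS LMPP over HSC they were 2 with DESeq2 size factors, 4 by DESeq2, 4 on genes above background and 0 to 3 without a library. Beside most of these counts no share of all genes is given, so they do not set the members apart. The cause of the changes between settings was not tested.

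Among these pairs, signs changed for Hbb-bt in control LK over HSC (-1.53 on genes above background, -1.57 with the mouse block on those genes, -0.04 to 0.31 without a library), for Klf1 in leukaemia over control HSC (-0.17 on genes above background) and for Gfi1b there (-0.02 with DESeq2 size factors, -0.02 by DESeq2, -0.27 on genes above background). Over all types, CNS over BM ran from -0.17 to 0.76 for Car1 and from -0.15 to 0.55 for Car2 without a library, below 0 without the first CNS LK library. Outside these pairs, signs also differed on genes above background, among them for Gata1 (0.39 and -0.90), Car1 and Car2 in leukaemia over control HSC, Car2 in LMPP, Tfrc in LK and Gata1 in CNS LK over HSC.

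The mouse as a block called 9, 10 and 1 members for control LK over HSC, LK over LMPP and LMPP over HSC, and 0 between CNS and BM, so it changed no call. With the block on genes above background, 1 member was called between CNS and BM in LMPP. Without each mouse in turn that count ran from 0 to 1, as it did in LK (1 without mouse 4 of HSC), over all types (1 without mouse 4 of HSC, mouse 4 of LMPP or mouse 1 of LK) and for the dependence on type (1 without mouse 4 of HSC). No paired analysis was possible for leukaemia against control because no mouse is in both arms. The shallowest library, with 1.91 M counts, limits what can be read of low members in leukaemia BM LMPP.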

Other observations

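In HSC and LMPP cells of the leukaemia arm, the wider erythroid lists were read differently by the fits. Against control HSC, 5 of 9 haem synthesis genes were called higher and none lower on all genes, led by Alas1 (2.46), Alad (1.70) and Urod (1.34), but 1 of 8 was higher and 2 lower on genes above background. Of all genes tested 20.3% were called higher and 1.06% lower there, and 27.5% and 20.7% on genes above background, so these counts are to be read against those shares. Partners of Gata1 and Klf1 showed 12 of 14 higher and 1 lower, with Lyl1 (2.98), Spi1 (2.93), Ikzf1 (2.90) and Nfe2 (2.20) as the clearest, and 6 higher and 2 lower on genes above background. Erythroid progenitor markers showed 2 of 16 higher in leukaemia HSC, Cd24a (2.31) and Prdx2 (1.59), against 1 higher and 8 lower of 15 on genes above background. In LMPP cells 9 of 16 of these markers were lower and 4 higher, and 12 lower and 1 higher of 15 on genes above background, where the shares of all genes were 36.8% lower and 26% higher, and 31.8% and 32.7% on genes above background. Membrane and skeleton genes were 10 lower and 2 higher of 14 in LMPP, and 10 lower with none higher of 12 on genes above background.

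Hba-a1 averaged 79.6 CPM in CNS HSC, with single libraries from 11.7 to 279 CPM, against 10.9 CPM in CNS LMPP and 12.3 CPM in CNS LK. Macrophage genes in the same 4 CNS HSC libraries summed to 138 to 1567 CPM.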
